A study of Mus musculus with 58 samples.

Results

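Mat2a and 8 further genes of the methionine cycle and its outlets (Mat2b, Mettl16, Ahcy, Ahcyl1, Mtr, Amd1, Srm and Mtap) were followed through every SLAM-seq and Quant-seq library of the series. They are 9 of the 20177 genes measured. Mat2a was chosen on its own read counts against 0 h after loss of DPY30 or RBBP5 in earlier results of these data, and the other 8 genes were taken because they work with it. The changes of Mat2a in SLAM-seq of those 2 degron lines, and its differences from them, are therefore given as a description, without a test. All libraries came from E14 mouse embryonic stem (mES) cells of the 129/Ola strain, and 3′-end reads were counted over annotated 3′ UTR intervals. In SLAM-seq, cells were given 100 µM 4-thiouridine (4SU) for 60 min, so that RNA made in that window carries T>C mismatches. DPY30–mAID cells, a line in which DPY30 carries an auxin-inducible degron and OsTIR1 is expressed, received auxin for 0 h, 2 h, 8 h or 24 h (3 replicates per time). RBBP5–FKBP cells, a clonal line in which dTAG-13 directs RBBP5 to degradation, followed the same time course (3 replicates per time). DPY30–mAID Kdm5a/b dKO cells, which carry the same DPY30 degron but lack the demethylases Kdm5a and Kdm5b, received auxin for 0 h, 2 h, 4 h, 8 h, 24 h or 48 h (2 replicates per time). The dKO cells were obtained as 2 clones, and the clone behind each library is not given in the sources used here. In Quant-seq, unlabelled DPY30–mAID cells with DMSO or auxin were grown with 1 µM retinoic acid (RA) and without LIF for 8 h or 1, 2, 4 or 6 days with 2 replicates each, and a DMSO group at 0 h served as their start. On day 6 both DMSO libraries hold the same values and count as 1 library. The study calls its replicates biological, but no source used here says which came from separate cultures, so p-values measure the spread between these libraries.

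The methionine cycle makes S-adenosylmethionine (SAM), the methyl donor for histone, DNA and RNA methylation. Mat2a is the catalytic subunit of the enzyme that makes SAM from methionine and ATP in most cells, including mES cells, and Mat2b is its regulatory partner. Donated methyl groups leave S-adenosylhomocysteine, which Ahcy hydrolyses and Mtr later helps to turn back into methionine, while Amd1, Srm and Mtap belong to the polyamine branch that also consumes SAM. Mat2a RNA is itself under control by SAM: Mettl16, an RNA m6A methyltransferase, binds hairpins in its 3′ UTR and acts on splicing of its last intron and on its stability.

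Mat2a reads were counted over a single interval, chr6:72432799-72434976 (GRCm38, minus strand, 2178 bases). It covers the annotated 3′ UTR of the transcript Mat2a-201 (72432799 to 72434295, stop codon included), the last coding bases of the final exon, which reaches 72434395, and most of the last intron. The transcript Mat2a-202 keeps that intron as exon sequence, so spliced and intron-retaining RNA were counted together. A search of the transcript strand for the letters TACAGAGAA and TACAGAAAA, the core of the Mettl16 hairpins, found 6 matches in this interval, all within the 3′ UTR of Mat2a-201. The sequences from GENCODE transcripts are shown from 5′ to 3′ because they mark where Mettl16 is known to act, with the searched letters in capitals.
Mat2a chr6:72434234-72434263: tggcgtaggtTACAGAGAAgccttcaagct
Mat2a chr6:72433450-72433479: ccttgtgataTACAGAGAAgtcacagggca
Mat2a chr6:72433271-72433300: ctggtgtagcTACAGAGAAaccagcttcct
Mat2a chr6:72433156-72433185: atggcgtaagTACAGAGAAgccatcacctc
Mat2a chr6:72433045-72433074: caaggtgtccTACAGAAAAaccttgggtta
Mat2a chr6:72432937-72432966: gctggtgtggTACAGAGAAgccagcttgtt
Of 45173 intervals with a sequence, 1.13% held TACAGAGAA and 0.881% held TACAGAAAA, and on the opposite strand the shares were 1.31% and 1.48%. Among 2667 intervals within 20% of the length of Mat2a, 3.07% and 3.37% held them. No other interval held 6 matches, 1 held 4 and 3 held 3, and none of the intervals of the other 8 genes held any. A match is a description of the letters, not of a bound site.

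Levels are given as CPM, the counts of a gene (all reads, or T>C reads) scaled to all reads counted in the library. A gene passed the test at an adjusted p below 0.05 in edgeR, and is said to be called where its log2 fold change also lay beyond 1. Libraries of the degron lines held 1721185 to 2852331 counted reads, those of the dKO cells 5931269 to 7792404 and 1264241 to 2543632 in Quant-seq. T>C reads made up 5.51 to 16.1% of reads in DPY30–mAID, 4.85 to 10.1% in RBBP5–FKBP and 2.04 to 5.27% in dKO libraries. The 3 DPY30–mAID libraries at 8 h stood apart, with T>C reads at 13%, 9.82% and 5.51% of the total in replicates 1, 2 and 3. All 9 pluripotency markers reached at least 10 CPM in every 0 h group, while at most 1 of 5 fibroblast, 2 of 5 neural, 2 of 5 trophectoderm and 2 of 5 RA target genes did, and none of 5 primitive endoderm markers. Kdm5a and Kdm5b RNA ranged up to 40.7 and 151 CPM in the dKO libraries and from 61.1 and 390 CPM upward in SLAM-seq of DPY30–mAID cells, whose Quant-seq libraries went down to 30.6 and 129 CPM, inside the dKO range. The degrons act on protein, so the transcripts of Dpy30 and Rbbp5 do not check them. Reads covered 18.7 T positions on average in both degron lines and 11.2 in the dKO cells, so T>C levels are compared within a line only. Mat2a held 10.1 to 15.4% multimapped reads in DPY30–mAID, and over 40% in the dKO and Quant-seq libraries, where its levels are less certain.

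After loss of DPY30, newly made Mat2a RNA was at its lowest at 8 h and was higher again at 24 h. Untreated libraries held 974, 994 and 1037 T>C CPM, and those of 2 h held 716, 791 and 813. After 8 h the values were 302, 168 and 139, and after 24 h they were 548, 593 and 580. The 4 time points did not overlap. The 8 h mean was 20.3% of the untreated mean, and the 24 h mean 57.3%. On the log2 scale the differences from 0 h were −0.41 ± 0.26 (SE), −2.41 ± 0.27 and −0.81 ± 0.26 for 2, 8 and 24 h, against medians over all genes tested of −0.08, −0.71 and −0.14. The 3 libraries at 8 h ranked by Mat2a in the same order as by their share of T>C reads in all genes, whose part in the result was not tested. With library sizes taken from T>C reads alone, which sets the median gene to about 0, the difference at 8 h was −1.67 ± 0.12.

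**Figure D1:**
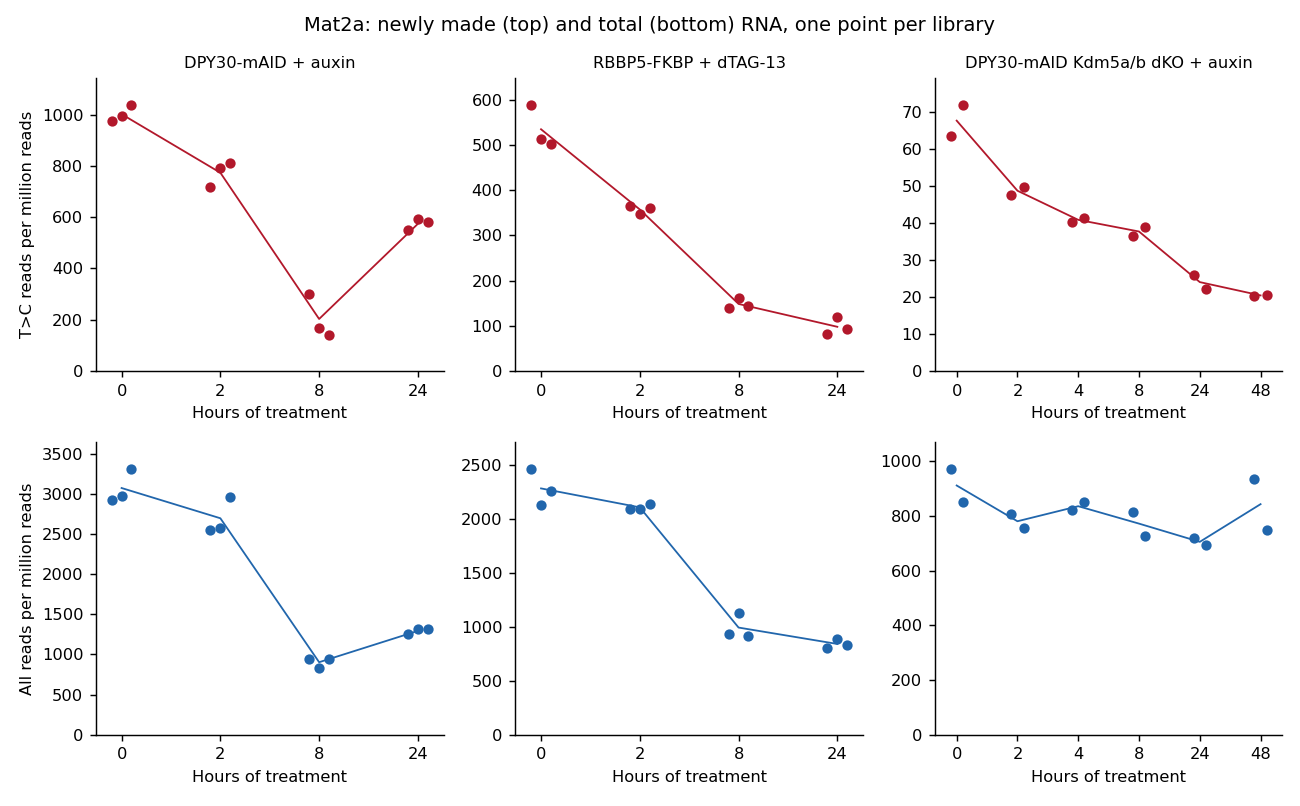
Mat2a in each SLAM-seq library (points) and its group mean (lines), with T>C CPM in the top row and total CPM in the bottom row, by hours of treatment on an evenly spaced axis. In DPY30–mAID cells T>C reads are lowest at 8 h and higher at 24 h, in RBBP5–FKBP cells they are lowest at 24 h, and in dKO cells total reads stay between 693 and 972.

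After loss of RBBP5, newly made Mat2a RNA was lower at each later time point. T>C CPM were 588, 513 and 503 in untreated libraries and 364, 347 and 361 after 2 h. Then followed 139, 161 and 144 after 8 h and 81.1, 119 and 93.5 after 24 h. No 2 time points overlapped, and the 24 h mean was 18.3% of the untreated mean. The log2 differences from 0 h for 2, 8 and 24 h were −0.60 ± 0.15, −1.90 ± 0.16 and −2.48 ± 0.17, against medians over all genes of −0.33, −0.50 and −0.91.

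From 2 h to 24 h the log2 difference of Mat2a T>C reads was −1.88 ± 0.16 in RBBP5–FKBP cells, against a median of −0.61 over all genes, and −0.40 ± 0.26 in DPY30–mAID cells, against −0.07. In a joint fit of the lines, a comparison chosen after the values were seen, the first minus the second was −1.48 ± 0.28. The median gene differed between these lines by −0.47, and with library sizes from T>C reads the Mat2a value was −1.01. These values rest on libraries on which Mat2a was chosen and carry no test. None of the other 8 genes was called in this comparison by edgeR, in which 5.96% of 6968 genes were called below −1.

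In dKO cells newly made Mat2a RNA was lower at each time point up to 48 h. The untreated pair held 63.5 and 72.0 T>C CPM, followed by 47.8 and 49.8 (2 h), 40.4 and 41.5 (4 h), and 36.6 and 38.9 (8 h). Later pairs held 25.9 and 22.3 (24 h) and 20.3 and 20.6 (48 h). No 2 time points overlapped, and each lay below the one before it. At 4 h (−0.75 ± 0.16, adjusted p = 0.0045) and 8 h (−0.87 ± 0.16, adjusted p = 0.00016) the test was passed with a change smaller than 1, as it was for lower values of 0.587% and 1.54% of all genes. At 24 h it fell by 1.56 ± 0.16 (adjusted p = 8e-13) and at 48 h by 1.82 ± 0.17 (adjusted p = 3.8e-16), whereas the median gene stood at −0.80 and −1.29. With library sizes from T>C reads the Mat2a values were −0.76 (adjusted p = 2.9e-06) and −0.51 (adjusted p = 0.0043).

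Total Mat2a RNA was lower from 8 h on in the degron lines, and in dKO cells it passed the test at 24 h only. DPY30–mAID cells held 2927, 2976 and 3310 total CPM before auxin and 2552, 2576 and 2956 after 2 h. The level was 937, 834 and 939 after 8 h, then 1251, 1312 and 1316 after 24 h. Libraries of 0 h and 2 h overlapped, and those of 8 h lay below those of 24 h. The 8 h mean was 29.4% of the untreated one, and the 24 h mean 42.1%.

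RBBP5–FKBP cells held 2461, 2124 and 2254 total CPM before dTAG-13 and 2086, 2087 and 2140 after 2 h. The level was 929, 1129 and 919 after 8 h, then 801, 885 and 835 after 24 h. All libraries from 8 h on lay below all earlier ones, and the means were 43.5% and 36.9% of the untreated one. From 2 h to 24 h the log2 difference was −1.03 ± 0.08 with loss of DPY30 and −1.34 ± 0.11 with loss of RBBP5. None of the other 8 genes was called between these times, where 6.48% and 1.12% of all genes were called down. With loss of DPY30, Srm (−0.83 ± 0.11) and Mettl16 (−0.63 ± 0.13) passed the test downward, as 16.5% of all genes did, and Ahcyl1 (0.64 ± 0.17) and Mat2b (0.41 ± 0.16) upward, as 14.3% did.

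The dKO pairs held 972 and 850 total CPM untreated, 805 and 755 (2 h), 820 and 850 (4 h), and 816 and 727 (8 h). Later pairs held 717 and 693 (24 h) and 935 and 750 (48 h). The 48 h libraries overlapped those of 0 h. The change at 24 h was −0.43 ± 0.09 (adjusted p = 0.0042) and at 48 h −0.20 ± 0.08 (adjusted p = 0.13). From 2 h to 24 h the change of total reads in dKO minus that in DPY30–mAID cells was 0.83 ± 0.15 on the log2 scale, without a test. For T>C reads the same comparison gave −0.67 ± 0.31 where the median gene stood at −0.64, and none of the other 8 genes was among the 1.03% of all genes called below −1. In these bulk libraries, fewer cells of a type and less RNA per cell cannot be told apart.

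The share of Mat2a reads with a T>C mismatch, which compares newly made with total RNA of the same gene, was highest at 24 h in DPY30–mAID cells and lowest at 24 h in RBBP5–FKBP cells. For DPY30–mAID cells it was 32.7% ± 1.15 (SD, n = 3) before auxin, then 28.7% ± 1.73 (2 h), 22.4% ± 8.92 (8 h) and 44.4% ± 0.726 (24 h). The 24 h libraries, at 43.8%, 45.2% and 44.1%, lay above every other library of the line. The share of T>C reads in the whole library was 15.8% before auxin and 15.3% after 24 h, so Mat2a went from 2.06 to 2.90 times the library share. For RBBP5–FKBP cells the Mat2a share went from 23.5% ± 0.996 (SD, n = 3) to 11.6% ± 1.68 after 24 h, which is 2.45 and 2.26 times the library share. For dKO cells it went from 7.51% ± 1.37 (SD, n = 2) to 2.46% ± 0.415 after 48 h, or 1.51 and 1.12 times the library share. Libraries of 24 h and 2 h did not overlap in either degron line. Over 91 share tests of 8 genes, which needed 50 reads of the gene in each library and so left out Amd1 and part of the Ahcy comparisons, and in which Mat2a was tested in dKO cells only, the smallest two-sided exact permutation p was 0.1, the smallest that 3 against 3 libraries can give, and the smallest adjusted p was 0.535.

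**Figure D2:**
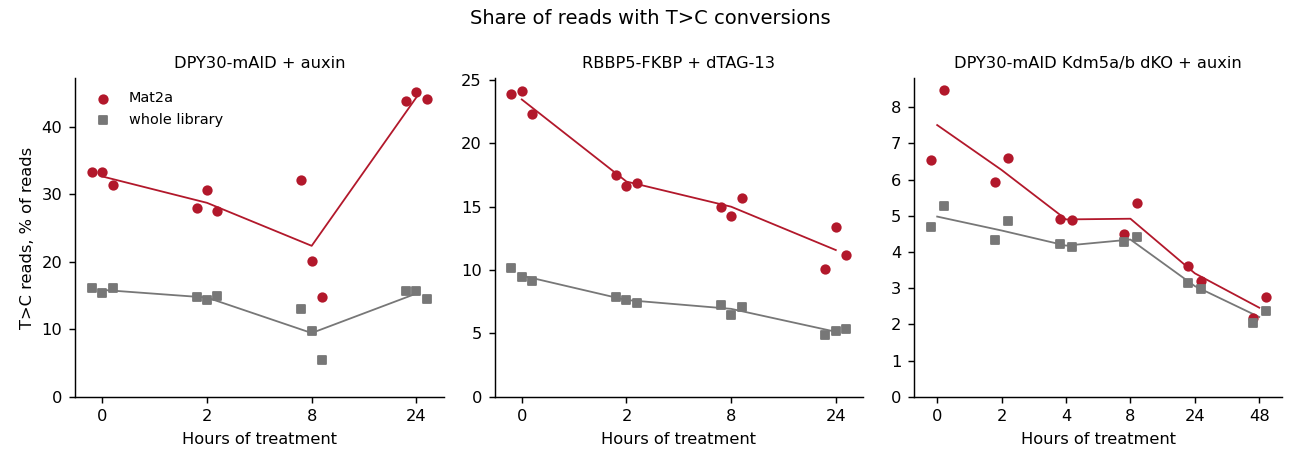
Percent of Mat2a reads (circles) and of all reads in the library (squares) that carried a T>C conversion, one point per SLAM-seq library with lines through the means, by hours of treatment on an evenly spaced axis. In DPY30–mAID cells the Mat2a share at 24 h (44.4%) is above that at 0 h (32.7%) while the library share is about level, whereas in the other lines both shares are lowest at the last time point.

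Labelling was high from the start. Genes were ranked where they held a mean of at least 50 reads over the 0 h libraries of a line. At 0 h the T>C share of Mat2a was above that of 88.1% of 5862 genes in DPY30–mAID and 91.7% of 5885 genes in RBBP5–FKBP cells. In dKO cells it was above 66.0% of 8350 genes. Mat2b ranked as high or higher, above 89.6%, 96.0% and 94.3% of genes. Srm ranked above 42.1%, 46.8% and 15.9%, and Ahcyl1, which is related to Ahcy, above 24.4%, 17.1% and 24.1%. In the unlabelled Quant-seq libraries 49 of 31941 Mat2a reads (0.153%) carried a T>C mismatch, against 0.346% over all genes.

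Mat2b, the regulatory subunit, had T>C CPM of 39.1, 39.9 and 37.0 before auxin, 34.5, 21.3 and 7.75 after 8 h and 40.5, 47.5 and 58.5 after 24 h in DPY30–mAID cells. The 8 h libraries lay below and the 24 h libraries above those of 0 h, but neither change passed the test (−0.96 ± 0.37, adjusted p = 0.065, and 0.33 ± 0.36, adjusted p = 0.66). After RBBP5 loss it was called at 24 h and fell by 1.15 ± 0.37 on the log2 scale (adjusted p = 0.017). The levels there went from 30.9, 33.7 and 16.0 to 14.2, 11.2 and 11.6, without overlap, and the call was lost without replicate 1 or 2 of 0 h (adjusted p = 0.058 and 0.089) or replicate 2 of 24 h (adjusted p = 0.054). In the dKO line Mat2b fell by 1.56 ± 0.32 at 48 h (adjusted p = 1.6e-05). Its total reads did not pass the test in any line against 0 h.

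Mettl16, the methyltransferase that acts on Mat2a RNA, had T>C CPM of 74.7, 51.0 and 64.5 before auxin and 47.7, 28.6 and 21.0 after 8 h in DPY30–mAID cells. It was called down at 8 h (−1.06 ± 0.33, adjusted p = 0.023) but not at 24 h (−0.97 ± 0.33, adjusted p = 0.085). The call at 8 h was lost without replicate 1 (adjusted p = 0.11) or 3 (adjusted p = 0.07) of 0 h or without replicate 2 of 8 h (adjusted p = 0.096), and without replicate 3 of 8 h the value was −0.83. After 24 h of RBBP5 loss levels went from 42.5, 25.6 and 24.3 to 12.9, 9.78 and 12.1, without overlap, and fell by 1.44 ± 0.36 (adjusted p = 0.002). In the dKO line it fell by 1.12 ± 0.30 at 24 h (adjusted p = 0.0022) and 1.59 ± 0.32 at 48 h (adjusted p = 1.5e-05). The 24 h call in dKO cells was lost without replicate 2 of 0 h (adjusted p = 0.074) or of 24 h (adjusted p = 0.069). Total Mettl16 CPM in DPY30–mAID cells went from 249, 240 and 256 to 188, 184 and 131 after 24 h and passed the test (−0.58 ± 0.13, adjusted p = 0.00053), as lower values did for 17.1% of all genes.

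Ahcy hydrolyses S-adenosylhomocysteine, Ahcyl1 is a relative of Ahcy without that activity, and Mtr serves the return to methionine. Ahcy gave at most 13 T>C reads in any SLAM-seq library, did not pass the filter on T>C reads in the degron lines, and did not pass the test in dKO cells. Ahcyl1 total reads rose in DPY30–mAID cells, from 79.1, 122 and 96.7 CPM to 145, 150 and 127 after 24 h (0.49 ± 0.16, adjusted p = 0.017). All 24 h libraries lay above the untreated ones, and 15.9% of all genes passed the test upward. Its T>C reads did not pass the test in the degron lines and fell by 1.95 ± 0.47 at 48 h in dKO cells (adjusted p = 0.00023), where 3 and 12 T>C reads were counted. Mtr total CPM rose from 44.8, 45.6 and 45.0 to 103, 69.0 and 68.0 after 24 h in RBBP5–FKBP cells (0.79 ± 0.21, adjusted p = 0.021), where 2.99% of all genes passed upward. In the dKO line they rose from 32.5 and 31.2 to 44.0 and 42.7 (0.38 ± 0.12, adjusted p = 0.046), where 5.05% did. Newly made Mtr RNA was called down at 48 h in dKO cells (−1.79 ± 0.68, adjusted p = 0.016), on 1 and 6 T>C reads. Without replicate 2 of 0 h the value was −0.54 (adjusted p = 0.63), and without replicate 1 of 48 h it was −1.04 (adjusted p = 0.21).

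In the polyamine branch, Amd1, the decarboxylase that commits SAM to polyamines, was near the limit of counting. Whether its near-identical copy Amd2 shares its reads was not tested. At most 9.52% of Amd1 reads were multimapped in any SLAM-seq library, and 0% in Quant-seq. RBBP5–FKBP libraries held 14, 28 and 21 Amd1 T>C reads untreated and 0, 0 and 1 after 8 h. It was called down at 8 h (edgeR, adjusted p = 0.0031), with a fitted −5.17 ± 1.20 that depends on these low counts, and DESeq2 gave no adjusted p. After 24 h the libraries held 5, 19 and 2 T>C reads and it was not called (adjusted p = 0.36). Mtap, which salvages the methylthioadenosine left by polyamine synthesis, had lower total reads after loss of RBBP5, with 172, 189 and 176 CPM untreated, 122, 107 and 116 after 8 h and 125, 100 and 125 after 24 h. Neither treated group overlapped the 0 h group (−0.69 ± 0.15, adjusted p = 0.0054, and −0.65 ± 0.15, adjusted p = 0.0086), and 5.12% and 4.49% of all genes passed downward. In the dKO line Mtap total CPM were 102 and 101 untreated, 72.2 and 65.4 after 24 h and 60.8 and 65.2 after 48 h (−0.62 ± 0.09, adjusted p = 0.00023, and −0.77 ± 0.09, adjusted p = 2.6e-05), where 6.44% and 7.84% passed downward. Its T>C reads fell by 1.60 ± 0.47 at 24 h (adjusted p = 0.0044) and 2.22 ± 0.51 at 48 h (adjusted p = 0.00012) in the same cells. The 24 h call was lost without replicate 2 of 0 h (adjusted p = 0.099). After RBBP5 loss the T>C call at 24 h (−1.24 ± 0.48, adjusted p = 0.049) was lost in 4 of 6 fits that left out a library, with an adjusted p of up to 0.22 without replicate 2 of 0 h.

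Srm makes spermidine, and its newly made RNA was called down in all 3 lines. With DPY30 loss its T>C CPM went from 68.8, 67.3 and 65.9 to 45.6, 33.9 and 15.0 after 8 h and 32.9, 18.4 and 29.5 after 24 h. All of these treated libraries lay below the untreated ones. Srm was called down at 8 h (−1.195 ± 0.34, adjusted p = 0.013) and 24 h (−1.33 ± 0.34, adjusted p = 0.02). Without replicate 3 of 8 h the 8 h value was −0.86 (adjusted p = 0.019), and leaving out any 1 library of the 24 h comparison gave −1.13 to −1.48 with adjusted p from 0.053 to 0.13. With RBBP5 loss levels went from 48.0, 45.6 and 29.4 to 13.7, 7.45 and 12.1 after 24 h, without overlap, and fell by 1.91 ± 0.36 (adjusted p = 4.2e-05). In the dKO line Srm fell by 1.29 ± 0.37 at 24 h (adjusted p = 0.004) and 1.51 ± 0.38 at 48 h (adjusted p = 0.00045). The dKO libraries held only 11 to 37 Srm T>C reads, and 26.2 to 37.0% of its reads there were multimapped, so these values are less certain. With library sizes from T>C reads, none of the calls of Srm against 0 h at 8 h in DPY30–mAID, at 24 h in RBBP5–FKBP or in dKO cells passed the test, with adjusted p of 0.23, 0.18, 0.49 and 0.82, while the 24 h value in DPY30–mAID cells was −1.197 (adjusted p = 2e-04).

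The total RNA of Srm differed between the degron lines. In DPY30–mAID cells it held 459, 414 and 385 CPM untreated and 542, 477 and 380 after 8 h, which overlapped (0.05 ± 0.11, adjusted p = 0.81), and fell to 269, 247 and 241 after 24 h (−0.74 ± 0.11, adjusted p = 5.5e-07). In RBBP5–FKBP cells it went from 471, 397 and 372 CPM to 631, 658 and 527 after 8 h and 482, 562 and 494 after 24 h. The 8 h libraries lay above the untreated ones and passed the test (0.51 ± 0.13, adjusted p = 0.016), as 4.13% of all genes did upward. Those of 24 h also lay above them but did not pass (0.28 ± 0.13, adjusted p = 0.19), so against 0 h no time point passed in both lines. Between 2 h and 24 h the change in RBBP5–FKBP minus that in DPY30–mAID cells was 1.21 ± 0.16 on the log2 scale (adjusted p = 8.4e-07), with a median of 0.02 over all genes. Here 4.91% of 11562 genes were called above 1, and Srm was the only one called of the 8 genes other than Mat2a, which was not tested. Total Mettl16 reads differed between dKO and DPY30–mAID cells in the same kind of comparison, by 0.65 ± 0.20 (adjusted p = 0.037), where 8% of genes passed.

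**Figure D3:**
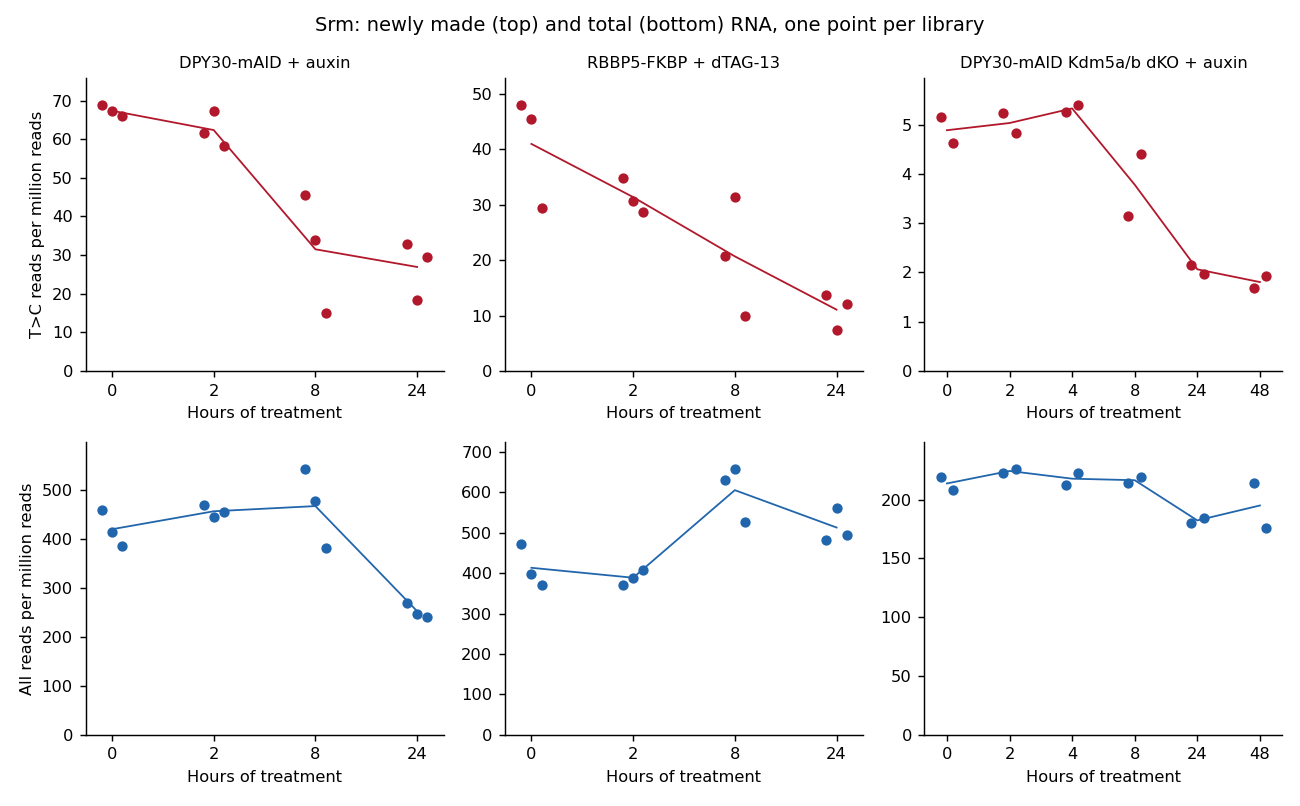
Srm in each SLAM-seq library (points) and its group mean (lines), with T>C CPM in the top row and total CPM in the bottom row, by hours of treatment on an evenly spaced axis. The group means of T>C reads are lowest at the last time point in all lines, while total reads at 24 h lie between 241 and 269 in DPY30–mAID and between 482 and 562 in RBBP5–FKBP cells.

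Counted together, 2 of 7 genes tested for T>C reads were called down at 8 h in DPY30–mAID cells (Srm and Mettl16), where 14.5% of all genes were, and 1 of 7 at 24 h (Srm), where 2.75% were. At 8 h in RBBP5–FKBP cells 1 of 7 was called down (Amd1) beside 5.61% of all genes. At 24 h 4 of 7 were (Srm, Mettl16, Mat2b and Mtap) beside 22.9%. In dKO cells 4 of 8 were called down at 24 h (Mat2a, Srm, Mettl16 and Mtap) beside 27.5% of all genes, and 7 of 8 at 48 h beside 64.4%. In each line 8 of the 9 genes passed the filter of a mean of 10 T>C reads in a group, and Mat2a is left out of the 7. The median log2 change of the genes tested and of all genes was −0.98 and −0.71 at 8 h in DPY30–mAID, −1.15 and −0.91 at 24 h in RBBP5–FKBP, −1.04 and −0.80 at 24 h and −1.69 and −1.29 at 48 h in dKO cells. None of the genes tested among the 9 was called up. At 2 h none was called in any line, where 0.147% of genes were called down in RBBP5–FKBP cells and none in the others, and at 4 h and 8 h in dKO cells none was called beside 0.201% and 0.704%. From 2 h to 24 h Srm was called for T>C reads in DPY30–mAID cells (−1.18 ± 0.34, adjusted p = 0.043), 1 of 7 beside 1.84% of all genes, and no longer so without any 1 of the 6 libraries (adjusted p = 0.095 to 0.22). In RBBP5–FKBP cells Srm (−1.51 ± 0.36, adjusted p = 0.0044) and Mettl16 (−1.35 ± 0.37, adjusted p = 0.012) were, 2 of 7 beside 7.31%, and Mettl16 was lost without replicate 2 of 24 h (adjusted p = 0.056) or replicate 3 of 2 h (adjusted p = 0.087). With library sizes from T>C reads, which moved the median of all genes to between −0.02 and 0 in these comparisons and the share of calls that were upward at 8 h in DPY30–mAID cells from 1.08% to 40.8%, none of the genes tested was called down at 8 h in DPY30–mAID, at 24 h in RBBP5–FKBP or at 24 h or 48 h in dKO cells, while Mat2a, not tested in the degron lines, stood at −1.67 ± 0.12 and −1.57 ± 0.17 in the first 2 of these. Against 0 h none of the other 8 genes was called for total reads in either degron line, where 1.9% and 7.06% of genes were called down at 8 h and 24 h after DPY30 loss and 2.1% and 1.86% after RBBP5 loss. In dKO cells none of the 9 was called, beside 0.00878%, 0.632% and 0.781% of genes after 8 h, 24 h and 48 h.

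**Figure D4:**
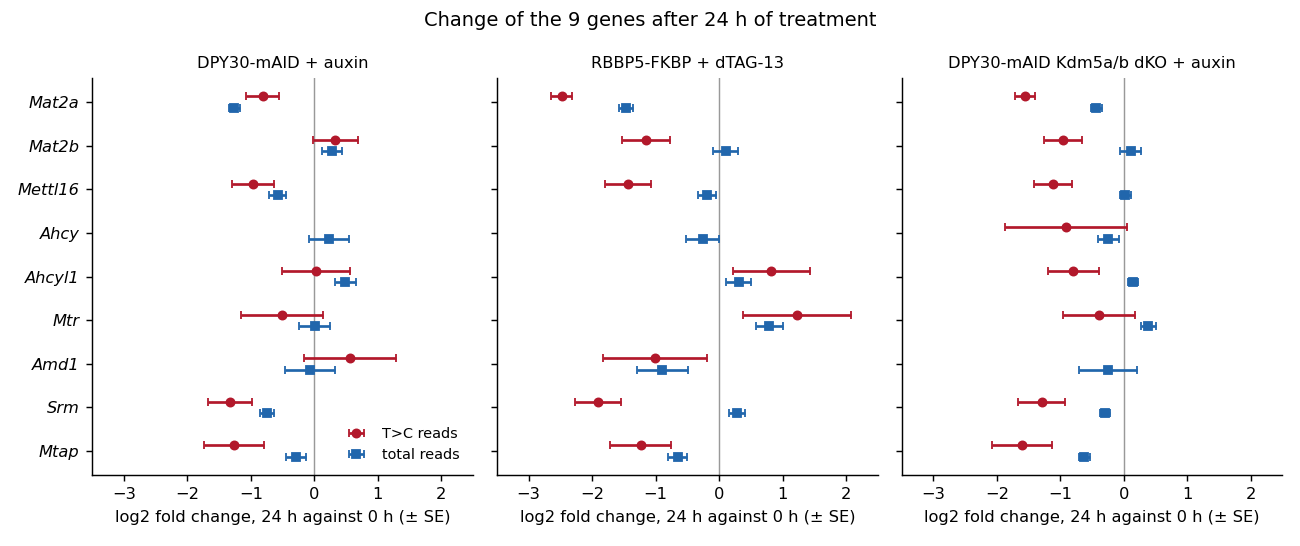
Log2 fold change at 24 h against 0 h from the edgeR fit of each line for the 9 genes, with standard errors as bars, for T>C reads (red circles) and total reads (blue squares), and no symbol where a gene did not pass the filter. T>C changes of Mat2a, Mettl16, Srm and Mtap lie below 0 in all 3 lines, as do the total changes of Mat2a, Mtap and Amd1.

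Total Mat2a reads fell under RA without auxin. DMSO libraries of the Quant-seq held 1275 and 1347 CPM before RA, 1003 and 980 after 8 h, and 833 and 816 on day 1. Then came 635 and 653 on day 2, 722 and 793 on day 4 and 490 in the single library of day 6. All libraries with RA lay below the pair without it. Mat2a passed the test from 8 h on (−0.34 ± 0.11, adjusted p = 0.026, beside 9.4% of all genes), fell by 0.66 ± 0.11 at day 1 (adjusted p = 1.4e-05, beside 23.9%) and by 1.10 ± 0.11 at day 2 (adjusted p = 5.6e-09), and stood at −0.97 ± 0.11 at day 4 (adjusted p = 2.9e-08, beside 26.5%). Over the same time the summed level of 5 primitive endoderm markers went from 9.20 to 1417 CPM at day 4, with 5 of 5 at 10 or more, and that of the 9 pluripotency markers from 7585 to 3494. Summed RA target genes went from 21.45 to 691 CPM, trophectoderm markers from 38.2 to 490.5, neural markers from 114 to 89.7 and fibroblast markers from 40.1 to 11.9. Their part in the result was not tested.

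Srm and Mettl16 fell with RA as well. Srm held 462 and 425 CPM before RA, 104 and 111 on day 1, 175 and 186 on day 2 and 133 and 124 on day 4, without overlap. It fell by 2.03 ± 0.14 at day 1 (adjusted p = 4.1e-12) and 1.97 ± 0.13 at day 4 (adjusted p = 2e-12). Mettl16 held 225 and 247 before RA and 91.5 and 92.3 on day 4, and fell by 1.54 ± 0.12 (adjusted p = 6e-11), and at day 2 it was down by 1.22 ± 0.12 (adjusted p = 6.4e-09). Mat2b (−0.70 ± 0.24, adjusted p = 0.015) and Ahcy (−0.73 ± 0.30, adjusted p = 0.042) passed the p threshold at day 4, and at day 2 Mat2b was lower (−0.62 ± 0.24, adjusted p = 0.034, where 22.6% of genes passed downward) and Mtap higher (0.42 ± 0.13, adjusted p = 0.011, where 25.4% of genes passed upward). Of the 9 genes, none was called at 8 h, 1 at day 1 (Srm), 3 at day 2 (Srm, Mettl16 and Mat2a) and 2 at day 4 (Srm and Mettl16), all down, where 3.03%, 12.3%, 9.97% and 11.1% of all genes were called down. Srm reads were 23.8 to 32.8% multimapped in Quant-seq.

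**Figure D5:**
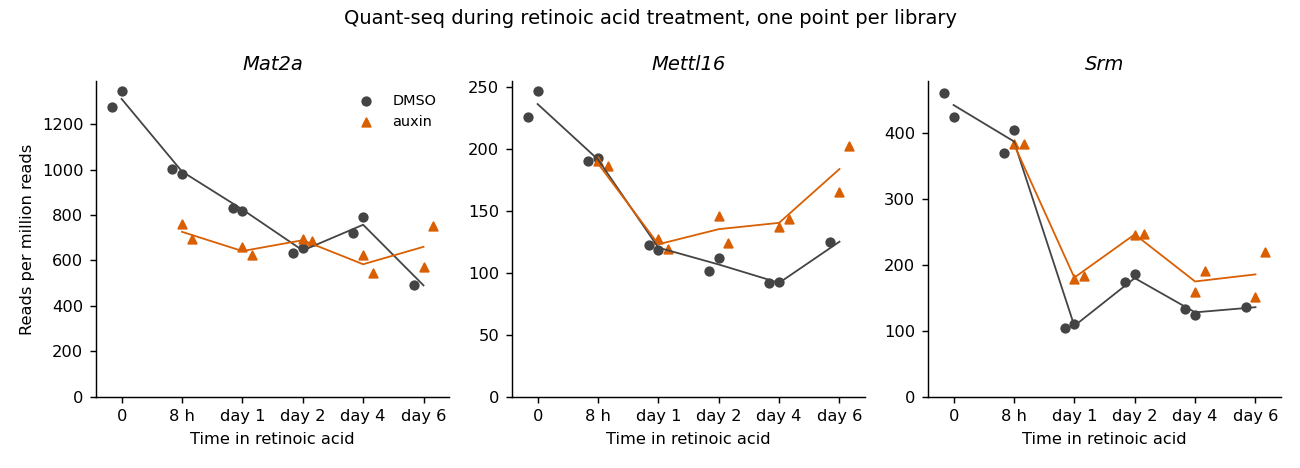
Quant-seq CPM of Mat2a, Mettl16 and Srm in DPY30–mAID cells with DMSO (grey circles) or auxin (orange triangles) under retinoic acid, one point per library with lines through the means, on an evenly spaced time axis. Auxin libraries of Mat2a lie below those with DMSO at 8 h, day 1 and day 4, and those of Srm lie above them from day 1 on.

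With auxin under RA, Mat2a was lower at 8 h and day 4. At 8 h the auxin libraries held 759 and 694 CPM, below both DMSO libraries (−0.54 ± 0.11, adjusted p = 0.011), where 0.736% of genes passed downward. At day 1 they held 659 and 624 (−0.35 ± 0.11, adjusted p = 0.058) and at day 2 694 and 685 (−0.01 ± 0.11, adjusted p = 0.97). At day 4 they held 622 and 545 and were again lower (−0.59 ± 0.11, adjusted p = 0.00039), where 11.5% did. The 2 auxin libraries of day 6, at 570 and 751, were not tested against the single DMSO library of 490. In auxin the levels from 8 h to day 6 thus stayed between 545 and 759. Srm moved the other way at day 1, with 179 and 183 CPM in auxin against 104 and 111 in DMSO (0.76 ± 0.15, adjusted p = 0.0015, where 3.52% passed upward), and Mettl16 was higher at day 4, with 137 and 144 against 91.5 and 92.3 (0.40 ± 0.13, adjusted p = 0.033, where 7.04% did). None of the 9 genes reached the fold threshold between auxin and DMSO at 8 h, day 1, day 2 or day 4, where 0.149%, 1.54%, 2.04% and 2.88% of genes were called down and 0.0175%, 0.894%, 2.71% and 4.42% up.

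The pathways around the cycle were followed with 57 further genes of methionine, folate, polyamine, salvage and transsulfuration metabolism. For T>C reads 4 of 32 tested were called down at 8 h in DPY30–mAID cells beside 14.5% of all genes, namely Azin1 (−1.59), Odc1 (−1.53), Gclc (−1.31) and Slc3a2 (−1.10), and the list median equalled that of all genes at −0.71. Odc1 is the entry enzyme of polyamine synthesis and Azin1 protects it from breakdown. At 24 h 5 of 26 were called down in RBBP5–FKBP cells beside 22.9%, among them Gcsh (−1.88), Odc1 (−1.53), Gclc (−1.34) and Slc3a2 (−1.08), with a list median of −0.92 beside −0.91 over all genes. At 48 h in dKO cells 23 of 29 were called down beside 64.4%, with a median of −1.45 beside −1.29. None was called up in these comparisons. Odc1 was called in all 3 lines.

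In total reads at 8 h, 2 of 50 were called down in each degron line, beside 1.9% and 2.1% of all genes. Cth of transsulfuration was lower in both (−1.34 ± 0.20, adjusted p = 1.5e-06, after DPY30 loss and −1.73 ± 0.40, adjusted p = 0.0074, after RBBP5 loss), joined by Azin1 (−1.22) in the former and Gldc (−1.45) in the latter. At 24 h in DPY30–mAID cells 2 of 50 were called down and 4 up, where 7.06% and 6.16% of all genes were. Slc19a1, a folate carrier, went from 40.7 to 12.2 CPM (−1.75 ± 0.28, adjusted p = 2.2e-06) and Slc43a2 stood at −1.04. Among the genes called up, Sat1, which acetylates polyamines, rose from 44.8 to 110 (1.28 ± 0.20, adjusted p = 1.4e-06), Apip of methionine salvage from 11.5 to 32.2 and Mtfmt from 2.85 to 11.7 CPM. In RBBP5–FKBP cells none of 50 was called at 24 h in total reads by edgeR.

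At day 4 in DMSO cells 12 of 51 were called down and 3 up, beside 11.1% and 19.6% of all genes. The largest falls were those of Tdh (−6.28), the threonine dehydrogenase on which mES cells draw for one-carbon units, Cbs (−2.65) of transsulfuration, Ada (−2.05), Gldc (−1.96) and Gcat (−1.89) of glycine metabolism, and Adi1 (−1.42) of methionine salvage. Aldh1l1 (2.79), Smox (2.45) and Slc46a1 (1.28) rose. With auxin at day 4, 6 of 51 were lower and 3 higher than with DMSO, beside 2.88% and 4.42% of all genes, the former with Slc7a5 (−1.78), Mthfd2 (−1.51) and Slc3a2 (−1.43) and the latter with Pemt (2.03), Bhmt (1.71) and Tdh (1.41).

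A list of 16 genes of m6A writing, reading and removal and of RNA cleavage, which includes known partners in the control of Mat2a RNA, was followed too. For T>C reads, Ythdf3 (−1.30) and Ythdf2 of 14 tested were called down at 8 h in DPY30–mAID cells, where 14.5% of all genes were. In RBBP5–FKBP cells 5 of 13 were called down at 24 h beside 22.9%, Ythdf3 (−2.38), Cpsf7 (−1.82), Ythdf2 (−1.57), Cpsf6 (−1.19) and Ythdf1 (−1.09), with a list median of −0.84 beside −0.91 over all genes. At 48 h in dKO cells 9 of 15 were beside 64.4%, with a median of −1.18 beside −1.29. In total reads none of 15 was called at 8 h or 24 h against 0 h in either degron line.

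Across the 11 treated SLAM-seq groups, the T>C pattern of Mat2a, taken as the log2 difference of the group mean from 0 h, was most like that of Chmp4b (Pearson r = 0.984), Jmjd1c (0.975), Nubp2 (0.971), Fam8a1 (0.964) and Rpe (0.964) among 4324 genes tested in all 3 lines. The median r over those genes was 0.561 and the 99th percentile 0.919, so most genes moved like Mat2a to some degree. Of the other members Mettl16 (0.836), Srm (0.827), Mat2b (0.811) and Mtap (0.709) were above that median and Ahcyl1 (−0.045) and Mtr (−0.083) below it. The groups of a line share their 0 h libraries and depth, and no p is given.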

How the data were processed

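SLAM-seq (36 libraries) and Quant-seq (22 libraries) of mES cells were used. The authors deposited raw read counts per 3′ UTR interval, with T>C reads and multimapped reads beside them, and the file headers name SlamDunk v0.3.4, also for Quant-seq, on GRCm38 with GENCODE vM14 intervals. The counts include T>C reads below the 2 conversions that the methods ask for, no molecular identifiers were used, and the spike-in was not used here. Counts of 46420 intervals were summed per gene, with names and transcripts from GENCODE vM21. T>C and total reads were each tested with edgeR 4.0.16 (R 4.3.3), quasi-likelihood with Benjamini-Hochberg adjustment over all genes tested, in 1 fit per line and 1 of all Quant-seq groups. Library sizes for T>C reads were those of all reads, scaled by TMM factors of all reads, and genes needed a mean of 10 reads in a group. A gene was called where adjusted p was under 0.05 with a log2 change larger than 1 in size. The SE of an edgeR log2 change is its size divided by the square root of the F statistic, also for Mat2a where no p is given. DESeq2 1.42.0, other scalings and filters and fits without each library were alternatives. Mat2a was not tested in SLAM-seq of the degron lines or between lines. Shares were compared by two-sided exact permutation tests. Counting intervals cover counting error only. Members and lists were chosen with earlier results of these data known. All 9 members were named, and from the wider lists the called genes, at most 6 each way. Il4i1, Shmt2 and Aldh1l2 were not analysed here. Some called genes of the wider lists are not reported here by name. Samples were grouped by their labels.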

Additional observations from a re-analysis of the deposited data

Results flagged for a closer look

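The change in total reads from 2 h to 24 h differed between lines for Srm and Mettl16 in a joint edgeR fit, a comparison chosen after the values were seen, in which Mat2a was not tested. For Srm the change in RBBP5–FKBP cells minus that in DPY30–mAID cells was 1.21 on the log2 scale (adjusted p = 8.4e-07). For Mettl16 the change in dKO minus that in DPY30–mAID cells was 0.65 (adjusted p = 0.037). The dKO libraries had shorter reads, and the line, read length and sequencing cannot be told apart.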

How the results depend on the processing

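No called value changed direction, whereas T>C changes that did not pass the test could change sign with TMM factors from T>C reads, such as those of Mtr at 24 h (−0.39 to 0.42) and Ahcy at 48 h (−0.91 to 0.33) in dKO cells. Counts are taken as moved where they changed by over 1.5 times. Below that, the count at 24 h in RBBP5–FKBP cells was 3 in place of 4, without Mtap, when fitted without TMM, without the filter, with a replicate block, without intervals rich in multimapped reads or on 2 groups. The number of genes called for T>C reads moved as follows. With TMM factors from T>C reads it was 0 in place of 2 (DPY30–mAID, 8 h), 2 in place of 1 (DPY30–mAID, 24 h against 0 h and against 2 h), 0 in place of 4 (RBBP5–FKBP, 24 h), 0 in place of 2 (RBBP5–FKBP, 24 h against 2 h), and 0 in place of 4 and 7 (dKO, 24 h and 48 h). Without TMM it was 1 at 8 h in DPY30–mAID cells, and in a fit of the 2 groups alone 0 there and 2 at 24 h against 0 h or 2 h. DESeq2 gave 2 in place of 1 at 8 h in RBBP5–FKBP cells and, for the difference between RBBP5–FKBP and DPY30–mAID cells, 1 (Mat2b) in place of 0. Without intervals rich in multimapped reads it was 2 in place of 4 (dKO, 24 h). That setting drops Mat2a, and in dKO cells and Quant-seq it also drops Srm, so neither was tested again there. Srm held 26.2 to 37.0% multimapped reads in dKO cells and 23.8 to 32.8% in Quant-seq. Under RA the counts became 0, 1 and 1 on days 1, 2 and 4. Leaving out 1 library gave 0 to 4 in DPY30–mAID at 8 h (0 without 8 h replicate 3, 4 without 8 h replicate 1), 0 at 24 h against 0 h or 2 h, 1 to 2 and 2 to 5 in RBBP5–FKBP at 8 h and 24 h and 1 to 2 there from 2 h to 24 h, and 2 to 5 in dKO at 24 h. For total reads it gave 1 to 2 on day 1 of RA. With a fit of 2 groups day 1 of RA gave 2, and without the filter 1 gene was called at 8 h in RBBP5–FKBP cells.

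By adjusted p alone, total counts were 3 and 4 in DPY30–mAID (24 h against 0 h and 2 h), 2 and 2 in RBBP5–FKBP (8 h and 24 h), 4 and 1 in dKO (24 h and 48 h), 1, 3, 5 and 5 under RA (8 h and days 1, 2 and 4) and 1, 1 and 2 for auxin (8 h and days 1 and 4), and T>C counts were 1 at 4 h and 8 h in dKO cells, to be read beside the shares of all genes that passed, given in the text above. On average same-numbered libraries did not deviate together (mean r from −0.0075 to 0.050), and the main fits did not pair them. Single pairs ranged from r = −0.169 (Quant-seq) to 0.355 (total reads, dKO), so a pairing of some libraries is not excluded. With a replicate block, 3 of 38 counts moved by over 1.5 times: to 0 for T>C reads in DPY30–mAID (24 h against 2 h), and to 2 for T>C and 1 for total reads at 8 h in RBBP5–FKBP cells. Counted as conversions per covered T, the Mat2a share was 1.48 and 1.73 times that of 0 h and 2 h at 24 h in DPY30–mAID, 0.662 and 0.6 times that of 0 h at 2 h and 8 h in RBBP5–FKBP, and 0.619 times at 4 h in dKO cells. With TMM-scaled libraries Mat2a held 1425, 1122, 900.9, 664.9 and 465.4 CPM with DMSO (0 h, 8 h, days 1, 2 and 6), 707.9, 659.8 and 483.7 with auxin (days 1, 2 and 4), and 19.72 T>C CPM at 48 h in dKO cells. Where no cause is stated, the cause was not tested. Low T>C counts limit the precision for Amd1, Ahcy and Mtr.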
